A study of Mus musculus with 48 samples.

Results

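The matrix metalloproteinase genes Mmp2, Mmp3, Mmp8, Mmp9, Mmp11, Mmp12, Mmp13, Mmp14, Mmp19 and Mmp23 were followed in the thoracic aorta of mice given β-aminopropionitrile (BAPN), an inhibitor of the lysyl oxidases that cross-link collagen and elastin. The 10 genes were chosen by name as members of 1 enzyme family, out of 18782 genes listed in the count table, and all 10 were among the 14431 genes tested. They were chosen with earlier results of these data known, and the other genes of the family are given further below. The 10 genes were divided, from textbook knowledge, into 6 enzymes made mainly by stromal cells (Mmp2, Mmp3, Mmp11, Mmp13, Mmp14 and Mmp23), 3 made mainly by macrophages or neutrophils (Mmp8, Mmp9 and Mmp12), and Mmp19, which both kinds of cell make.

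The series held 48 wild-type C57BL/6J mice, with 1 library of bulk RNA per mouse. MaCon (10 males) and FeCon (10 females) drank normal water, whereas MaNonAD (4), MaAAD (7), FeNonAD (8) and FeAAD (9) drank water with 0.4% BAPN for 28 days from 3 weeks of age. NonAD and AAD mice had the same exposure and were separated by the pathology found at harvest, without lesions or with aortic dissection or aneurysm. The libraries come from mice that survived to harvest, NonAD and AAD were outcomes and not assigned arms, and the RNA of AAD mice was taken from lesioned segments.

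Matrix metalloproteinases are zinc-dependent enzymes that are made as inactive precursors and cut collagens, elastin, proteoglycans and other extracellular proteins once a propeptide is removed. Fibroblasts and smooth muscle cells of the aortic wall make the gelatinase MMP2 and the membrane-bound collagenase MMP14, which activates it. Macrophages make the elastase MMP12, and neutrophils store the collagenase MMP8 and the gelatinase MMP9 in their granules. Because a transcript level reports neither secretion, activation nor the stored protein, the values below are amounts of RNA and not of enzyme activity.

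Library totals ranged from 13548003 to 17281262 counts, so that 1 count was worth 0.0582 to 0.0744 CPM (counts per 1000000 of the scaled library total). The labelled tissue carried its own markers in every group, with summed smooth muscle markers of 11779 to 59948 CPM and summed fibroblast markers of 13038 to 38648 CPM over all libraries. In both AAD groups against their controls, 10 of 10 macrophage markers were higher and 7 of 7 smooth muscle markers were lower by adjusted p. Of all tested genes, 35.0% in males and 44.4% in females passed in either direction, and 18.9% and 23.8% were higher. In bulk tissue, fewer cells of a type and less RNA per cell cannot be told apart, and this holds for every value below. Summed neutrophil markers stood far above the rest in FeAAD5 (884 CPM), MaAAD7 (238 CPM) and FeAAD9 (202 CPM), against a highest value of 16.6 CPM among all controls. Values without these 3 libraries are given beside the results they move.

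Of the members, 4 (Mmp13, Mmp12, Mmp3 and Mmp8) lie on mouse chromosome 9 in a block of 10 metalloproteinase genes in the order Mmp13, Mmp12, Mmp1b, Mmp3, Mmp1a, Mmp10, Mmp8, Mmp27, Mmp20 and Mmp7. The promoters of these 4 members are shown because they lie in 1 block with distinct expression, and because binding sequences of AP-1 and Runx2 are textbook elements of collagenase and stromelysin promoters. Each line gives the 150 bases before a transcription start annotated by RefSeq on GRCm38.p6, all on the plus strand, for Mmp13 at chr9:7272364-7272513, Mmp12 at chr9:7347224-7347373, Mmp3 at chr9:7445672-7445821 and Mmp8 at chr9:7558279-7558428. Capitals mark the AP-1 motif (TGAGTCA or, on the other strand, TGACTCA), the Runx motif (AACCACA, or TGTGGTT on the other strand) and the TATA box (TATAAA, gene strand).

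Mmp13: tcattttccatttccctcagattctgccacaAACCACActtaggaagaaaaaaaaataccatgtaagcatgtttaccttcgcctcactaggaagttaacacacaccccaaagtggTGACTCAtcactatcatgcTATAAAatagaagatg

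Mmp12: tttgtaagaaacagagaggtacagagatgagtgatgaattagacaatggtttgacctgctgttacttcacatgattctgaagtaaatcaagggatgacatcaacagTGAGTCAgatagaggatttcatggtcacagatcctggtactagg

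Mmp3: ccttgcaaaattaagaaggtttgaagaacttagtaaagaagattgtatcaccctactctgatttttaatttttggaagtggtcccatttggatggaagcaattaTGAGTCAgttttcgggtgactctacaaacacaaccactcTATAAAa

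Mmp8: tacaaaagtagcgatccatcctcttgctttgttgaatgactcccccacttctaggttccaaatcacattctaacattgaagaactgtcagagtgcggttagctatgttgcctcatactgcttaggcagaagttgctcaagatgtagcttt

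The AP-1 motif began at position -35 from the start in Mmp13, at -46 in Mmp3 and at -44 in Mmp12. The Mmp12 promoter shown belongs to the second of 2 annotated starts, and the other start held none of the 3 motifs. The searched window was 250 bases before each start, and 7 members had at least 1 promoter in the table (9 promoters in all). Over 32536 promoters, 4.45% held the AP-1 motif, 7.55% the TATA box and 4.41% the Runx motif. The Mmp13 promoter held all 3 motifs, with the Runx motif at -119, and the Mmp3 promoter held the AP-1 motif and the TATA box. None of the 3 was found in the windows of Mmp8, Mmp11, Mmp14 and Mmp23. A match is a run of letters and was not tested as a binding site.

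In control aorta Mmp23, Mmp2, Mmp14 and Mmp3 were the abundant members. Per kilobase of the longest annotated transcript, the median levels in MaCon were 139 CPM per kb for Mmp23, 119.7 CPM per kb for Mmp2, 45.3 CPM per kb for Mmp14 and 19.95 CPM per kb for Mmp3. These were followed by Mmp11 (7.64 CPM per kb), Mmp19 (4.01 CPM per kb), Mmp9 (3.24 CPM per kb), Mmp12 (0.377 CPM per kb), Mmp13 (0.231 CPM per kb) and Mmp8 (0.0274 CPM per kb). In this order the ranges of neighbours overlapped for Mmp23 and Mmp2, Mmp19 and Mmp9, Mmp12 and Mmp13, and Mmp13 and Mmp8, and were separate for the other 5 pairs. FeCon had the same order except that Mmp2 (124 CPM per kb) stood above Mmp23 (116.5 CPM per kb), again with overlapping ranges. In both AAD groups Mmp19 had moved above Mmp11, with medians of 10.85 against 9.35 CPM per kb in MaAAD and 10.3 against 9.17 CPM per kb in FeAAD, and the ranges of this pair overlapped.

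In AAD against control aorta, most of the 10 members were higher in both sexes. Mmp12 was the 1 member whose AAD and control ranges were separate in both. A differentially expressed gene (DEG) had an adjusted p under 0.05 in edgeR's quasi-likelihood test with Benjamini-Hochberg adjustment over all tested genes and a fitted log2 fold change of 1 or more in either direction. In MaAAD vs MaCon, 6 members were higher DEGs (Mmp2, Mmp3, Mmp8, Mmp12, Mmp13 and Mmp19) beside 9.18% of all tested genes. In FeAAD vs FeCon, 6 members were higher DEGs (Mmp8, Mmp9, Mmp12, Mmp13, Mmp14 and Mmp19) beside 9.94% of all tested genes. When FeAAD5, FeAAD9 and MaAAD7 were left out, 5 were called in males (Mmp2, Mmp3, Mmp12, Mmp13 and Mmp19) and 2 in females (Mmp12 and Mmp13). No member was a lower DEG in either. By adjusted p alone, 7 members were higher in males and 9 in females, beside 18.9% and 23.8% of tested genes. The ranges of AAD and control libraries were separate for 4 members in males (Mmp2, Mmp3, Mmp12 and Mmp19) and for 1 in females (Mmp12), beside 6.14% and 3.63% of tested genes. The median log2 fold change of the members was 1.53 in males and 1.19 in females, beside -0.03 and 0.00 over all tested genes. Mmp8 passed the filter on low counts through the AAD libraries and was bound to differ, so it lends these counts no weight. By class, 3 of 6 stromal enzymes were DEGs in males and 2 of 6 in females, and 2 of 3 leukocyte enzymes in males and 3 of 3 in females. The leukocyte counts include Mmp8 in both sexes and, in females, Mmp9, which DESeq2 did not call. Without FeAAD5, FeAAD9 and MaAAD7, Mmp12 was the only leukocyte enzyme called in either sex. Mmp13 was then the only stromal enzyme called in females.

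**Figure D1:**
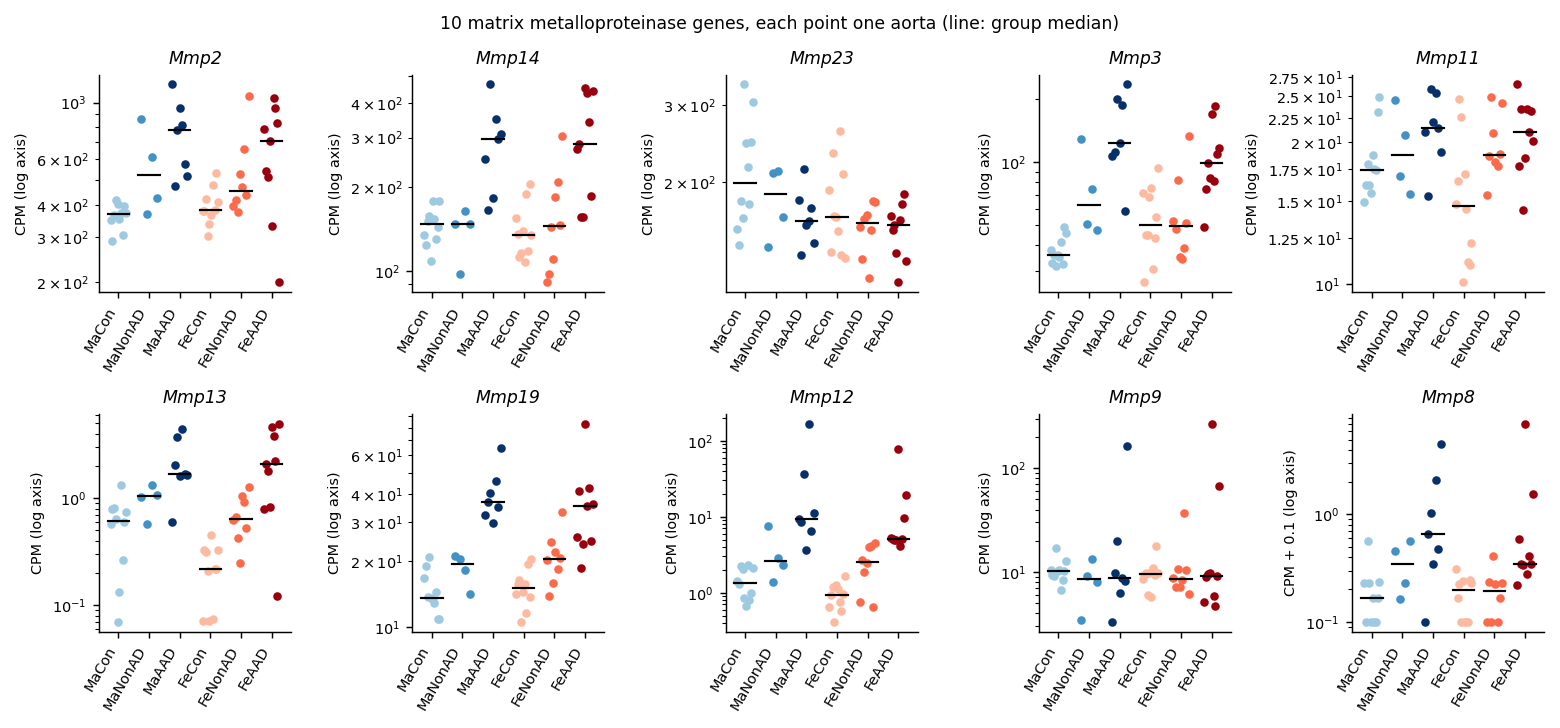
Level of each of the 10 genes in every library, in CPM on a log axis (for Mmp8, CPM + 0.1, since some libraries were at 0), by group; a point is 1 mouse and a line is the group median. Mmp12 in all MaAAD and FeAAD libraries lay above every same-sex control, whereas Mmp9 medians stayed between 8.58 and 10.3 CPM and single libraries reached 164 and 268 CPM.

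Mmp2, the gelatinase of stromal cells that also cuts type IV collagen, was higher in male AAD aorta in every mouse. Its level ranged from 289 to 417 CPM in MaCon (median 368) and from 471 to 1176 CPM in MaAAD (median 783), so that the groups did not overlap. The log2 fold change was 1.06 (adjusted p = 0.000158, SE 0.22). In females, FeCon ranged from 302 to 531 CPM (median 381) and FeAAD from 199 to 1040.2 CPM (median 711). The FeAAD spread ran in both directions: 6 of 9 libraries stood above every control and FeAAD9, at 199 CPM, stood below every control. Its fold on the log2 scale was 0.72 (adjusted p = 0.0043, SE 0.21), which passed the adjusted p and not the fold. Without FeAAD5, FeAAD9 and MaAAD7, Mmp2 in females changed by 0.95 on the log2 scale (adjusted p = 4.49e-05), and in males by 1.14 (adjusted p = 4.8e-06). The male call rested on MaAAD1 and MaAAD4 for its size: the log2 fold change was 0.94 without MaAAD1 and 0.999894 without MaAAD4.

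Mmp14, the membrane-bound collagenase that activates proMMP2, was higher by adjusted p in both sexes. MaCon ranged from 108 to 178 CPM (median 147) and MaAAD from 165 to 465 CPM (median 296), with 6 of 7 MaAAD libraries above every control. The log2 fold change was 0.99 (adjusted p = 0.000331, SE 0.22), just under the fold that makes a DEG. It passed in 18 of 48 fits that each left out 1 library, with DESeq2 (1.01, adjusted p = 5.49e-05) or its size factors, with the replicate block (1.02) and with MaAAD and MaCon alone (1.02). FeCon ranged from 108 to 205 CPM (median 135) and FeAAD from 155 to 453 CPM (median 284), with 6 of 9 above every control. The log2 fold change of 1.10 (adjusted p = 2.48e-05, SE 0.21) made it a DEG in females, and without FeAAD5, FeAAD9 and MaAAD7 it was 0.89 (adjusted p = 0.000747). The difference between the sexes in this response was -0.12 on the log2 scale (95% interval -0.72 to 0.49, adjusted p = 0.892), so a difference between the sexes was not shown.

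Mmp3, the stromelysin that cuts proteoglycans and activates other metalloproteinases, was higher by adjusted p in both sexes and reached the fold of a DEG in males. MaCon ranged from 32.0 to 48.8 CPM (median 35.9) and MaAAD from 58.2 to 236 CPM (median 124), and the groups did not overlap. FeCon ranged from 26.6 to 93.5 CPM (median 49.9) and FeAAD from 48.9 to 187 CPM (median 99.3), with 5 of 9 FeAAD libraries above every control. In males the log2 fold change was 1.95 (adjusted p = 2.57e-07, SE 0.27). In females it was 0.96 (adjusted p = 0.00184, SE 0.25) and reached the fold in 8 of 48 fits that each left out 1 library. The male response exceeded the female response by 0.99 on the log2 scale (95% interval 0.24 to 1.74, unadjusted p = 0.0104), which did not pass after adjustment (adjusted p = 0.164). FeCon was wider than MaCon, with an SD of 21.3 CPM against 5.74 CPM.

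Mmp13, the collagenase of cartilage and bone cells that cuts type II and type I collagen, was scarce in control aorta. FeCon libraries held 1 to 7 counts each (34 counts over 10 libraries, 0.0709 to 0.456 CPM, median 0.218), and FeAAD libraries 2 to 82 counts (0.121 to 4.95 CPM, median 2.08). MaCon ranged from 0.0703 to 1.32 CPM (median 0.618) and MaAAD from 0.603 to 4.43 CPM (median 1.67). FeAAD8 alone among FeAAD, and MaAAD1 alone among MaAAD, lay within the control range. The fitted log2 change was 3.30 (adjusted p = 1.82e-07, SE 0.47) in females and 1.90 (adjusted p = 0.000565, SE 0.44) in males. The male response was smaller by 1.40 on the log2 scale, a difference of -1.40 (95% interval -2.69 to -0.10, unadjusted p = 0.0347) that did not pass after adjustment (adjusted p = 0.277). The 2 AAD groups themselves differed by -0.07 (95% interval -0.93 to 0.78), while MaCon lay above FeCon by 1.33 (adjusted p = 0.0564, SE 0.48), which passed with DESeq2 (1.35, adjusted p = 0.0369) and without FeAAD5, FeAAD9 and MaAAD7 (1.32, adjusted p = 0.0411). Chondrocyte markers were also higher: 5 of 6 were DEGs in MaAAD vs MaCon and 4 of 6 in FeAAD vs FeCon, beside 9.18% and 9.94% of all tested genes called higher. Across the 48 libraries, after subtraction of group means, the correlation of Mmp13 with the summed chondrocyte markers was -0.06. With summed neutrophil markers it was 0.51, with B cell markers 0.35, with macrophage markers 0.34 and with fibroblast markers 0.28. Over the 45 libraries without FeAAD5, FeAAD9 and MaAAD7 these were 0.10 for chondrocyte, 0.37 for neutrophil, 0.12 for B cell, 0.36 for macrophage and 0.47 for fibroblast markers. The part of these cells in the rise of Mmp13 was not tested.

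Mmp11, known as stromelysin-3 of fibroblasts, was among the least changed. Levels ran from 14.9 to 24.9 CPM in MaCon, from 15.4 to 25.9 CPM in MaAAD, from 10.1 to 24.6 CPM in FeCon and from 14.4 to 26.5 CPM in FeAAD. All 4 ranges overlapped. The log2 fold change was 0.44 in females (adjusted p = 0.00861, SE 0.14) and 0.23 in males (adjusted p = 0.223, SE 0.15).

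Mmp23, an unusual membrane-anchored member without the hemopexin domain, was the 1 member with a negative fold in both sexes. MaCon ranged from 144 to 335 CPM (median 199) and MaAAD from 137 to 215 CPM (median 163). FeCon ranged from 135 to 262 CPM (median 167) and FeAAD from 118 to 188 CPM (median 160.2). No BAPN-treated library of either sex lay above the highest control, and all ranges overlapped. Its fold on the log2 scale was -0.37 (adjusted p = 0.0444, SE 0.15) in males and -0.20 (adjusted p = 0.231, SE 0.14) in females. The male value passed the adjusted p in 25 of 48 fits that each left out 1 library, and did not pass without FeAAD5, FeAAD9 and MaAAD7 (-0.34, adjusted p = 0.0827). Among the members Mmp23 had the highest correlation with summed smooth muscle markers (0.60 over 48 libraries after subtraction of group means), and those markers were lower in both AAD groups. Their part in its level was not tested.

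**Figure D2:**
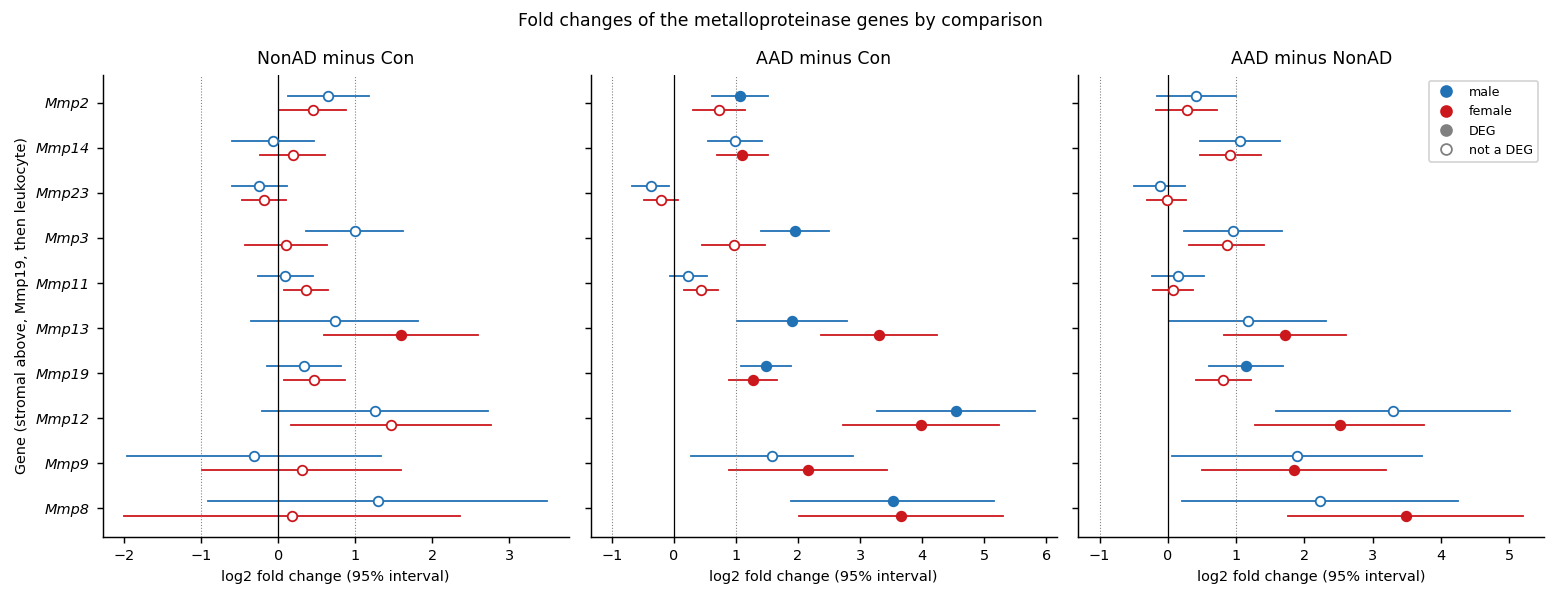
Fitted log2 fold change (x axis, with 95% interval) of each gene (y axis) for NonAD minus Con, AAD minus Con and AAD minus NonAD, males in blue and females in red; filled points are DEGs and dotted lines mark a log2 fold change of 1 and -1. In AAD minus Con, 6 points of each sex are filled and Mmp23 lies left of 0 in both.

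Mmp19, an enzyme of smooth muscle, fibroblasts and macrophages that cuts basement membrane proteins, was higher in nearly all AAD mice. MaCon ranged from 10.9 to 20.7 CPM (median 13.6) and MaAAD from 29.6 to 64.6 CPM (median 36.9), with no overlap. FeCon ranged from 10.6 to 20.3 CPM (median 15.0) and FeAAD from 18.6 to 83.3 CPM (median 35.2), where FeAAD3 alone fell within the control range. The log2 fold change was 1.48 (adjusted p = 1.67e-07, SE 0.20) in males and 1.28 (adjusted p = 5.16e-07, SE 0.19) in females. Without FeAAD5, FeAAD9 and MaAAD7 these were 1.33 (adjusted p = 2.49e-08) and 0.996523 (adjusted p = 2.94e-06), the latter just under the fold that makes a DEG. Of the members, Mmp19 had the highest correlation with summed macrophage markers, 0.78 over 48 libraries after subtraction of group means. Without FeAAD5, FeAAD9 and MaAAD7 it was 0.66, close to Mmp14 at 0.65. Mmp19 also had 0.64 with neutrophil markers (0.36 without them) and -0.53 with smooth muscle markers (-0.48 without them). The median of the macrophage markers was 462 CPM in MaCon, 1905 CPM in MaAAD, 542 CPM in FeCon and 1336 CPM in FeAAD. The part of these cells in the rise of Mmp19 was not tested.

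Mmp12, the macrophage elastase, did not overlap between AAD and control libraries in either sex. It ranged from 0.664 to 2.30 CPM in MaCon (median 1.36) and from 3.63 to 167 CPM in MaAAD (median 9.22). In females it ranged from 0.415 to 1.64 CPM in FeCon (median 0.940) and from 4.14 to 77.7 CPM in FeAAD (median 5.13). All 16 AAD libraries stood above every same-sex control, and the FeAAD libraries other than FeAAD5, FeAAD8 and FeAAD9 lay closely between 4.14 and 5.31 CPM. The fitted log2 change was 4.55 (adjusted p = 2.68e-07, SE 0.63) in males and 3.98 (adjusted p = 1.51e-06, SE 0.63) in females. The size depended on single libraries: it was 3.09 in males without MaAAD5, which held 167 CPM, and 2.93 in females without FeAAD5, which held 77.7 CPM. Its fitted fold was above those of the other members in both sexes, but without MaAAD5 that of Mmp8 was higher in males (3.37), and without FeAAD5 that of Mmp13 was higher in females (3.12). Leaving out FeAAD5, FeAAD9 and MaAAD7 gave 4.71 (adjusted p = 4.64e-09) and 2.55 (adjusted p = 0.000172). MaAAD5 was not high in neutrophil markers (13.3 CPM). Its summed macrophage markers, 2314 CPM, were above the MaAAD median of 1905 CPM. They were below those of MaAAD7, 4227 CPM, where Mmp12 was 11.1 CPM. Over the 48 libraries, after subtraction of group means, Mmp12 had a correlation of 0.54 with summed macrophage markers (0.50 without FeAAD5, FeAAD9 and MaAAD7) and 0.51 with neutrophil markers (0.26 without them). The part of these cells in the rise of Mmp12 was not tested.

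Mmp8, the neutrophil collagenase, was near the limit of detection. FeCon libraries held 0 to 3 counts and 12 counts in all, while FeAAD libraries held 2 to 117 counts and 171 in all, of which 117 were in FeAAD5 and 24 in FeAAD9. MaCon libraries held 0 to 7 counts (15 in all) and MaAAD libraries 0 to 77 counts (145 in all), with 77 in MaAAD7 and 33 in MaAAD5. In CPM the medians were 0.0965 in FeCon, 0.248 in FeAAD, 0.0665 in MaCon and 0.558 in MaAAD. The fitted log2 fold change was 3.66 (adjusted p = 0.000279, SE 0.81) in females and 3.53 (adjusted p = 0.000569, SE 0.81) in males. It fell to 2.20 (adjusted p = 0.0163) without FeAAD5 in females and to 2.69 (adjusted p = 0.0111) without MaAAD7 in males. Without FeAAD5, FeAAD9 and MaAAD7, Mmp8 was too low to be tested.

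Mmp9, the gelatinase of neutrophils and macrophages, was very high in a few AAD libraries while the medians were not. Its median was 10.3 CPM in MaCon and 8.68 CPM in MaAAD, and 9.54 CPM in FeCon and 9.21 CPM in FeAAD. The 7 MaAAD libraries held 3.32, 9.74, 19.7, 6.21, 8.68, 8.12 and 164 CPM, against 6.65 to 17.1 CPM in MaCon. FeAAD ranged from 4.68 to 268 CPM, with 268 CPM in FeAAD5 and 67.7 CPM in FeAAD9, against 5.80 to 17.7 CPM in FeCon. In each sex 2 AAD libraries stood above every control and 2 stood below every control. The female fold nevertheless passed as a DEG (2.16, adjusted p = 0.00454, SE 0.63) and the male fold did not (1.58, adjusted p = 0.0536, SE 0.65), though it passed in 11 of 48 fits that each left out 1 library. DESeq2 did not call the female fold (0.58, adjusted p = 0.2), nor did the fit with the replicate number as a block (1.19, adjusted p = 0.139), and DESeq2 gave -0.16 (adjusted p = 0.804) in males. Without FeAAD5 the female value was 0.64 (adjusted p = 0.343), and without MaAAD7 the male value was -0.17 (adjusted p = 0.858). Leaving out FeAAD5, FeAAD9 and MaAAD7 turned both directions, to -0.35 for females, with adjusted p = 0.388, and to -0.17 for males, with adjusted p = 0.713.

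The libraries that carried Mmp9 were those with the highest neutrophil markers. Summed over 11 markers, FeAAD5 held 884 CPM, MaAAD7 238 CPM and FeAAD9 202 CPM, and the next, MaAAD3, held 55.4 CPM, with 19.7 CPM of Mmp9. In medians the sum was 4.20 CPM in MaCon, 22.2 CPM in MaAAD, 3.51 CPM in FeCon and 11.9 CPM in FeAAD. Of 7 markers that could be tested, 4 were higher DEGs in MaAAD (S100a8, S100a9, Csf3r and Cxcr2) and 1, Ngp, a lower DEG. In FeAAD 5 were higher DEGs, the same 4 and Retnlg. Of all tested genes 9.18% in males and 9.94% in females were called higher. The other markers, Ly6g, Mpo, Elane and Camp, were too low to be tested. Their highest counts in FeAAD were 7, 4, 3 and 3, against 6331 for S100a8 and 5302 for S100a9. Among the called markers, Cxcr2 and Retnlg reached the level of the filter in 0 and 1 of the control and NonAD libraries, so they passed through the AAD libraries and were bound to differ. Over the 48 libraries, after subtraction of group means, Mmp9 had a correlation of 0.76 with this sum and Mmp8 of 0.85. These fell to 0.04 for Mmp9 and 0.42 for Mmp8 without FeAAD5, FeAAD9 and MaAAD7. FeNonAD6 departed from this: it held 36.98 CPM of Mmp9, above all FeCon, at 3.49 CPM of neutrophil markers. FeAAD5 and MaAAD7 were also the highest of all libraries in macrophage markers (6240 and 4227 CPM), while FeAAD9 held 1026 CPM. With these markers Mmp9 had a correlation of 0.55 and Mmp8 of 0.65, and 0.15 and 0.25 without FeAAD5, FeAAD9 and MaAAD7. Mmp9 with smooth muscle markers went from -0.01 to 0.42 when those libraries were left out. The part of these cell types in the fold of Mmp9 was not tested. Summed red cell markers were highest in FeAAD2 (18746 CPM), where Mmp9 was not above the controls.

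**Figure D3:**
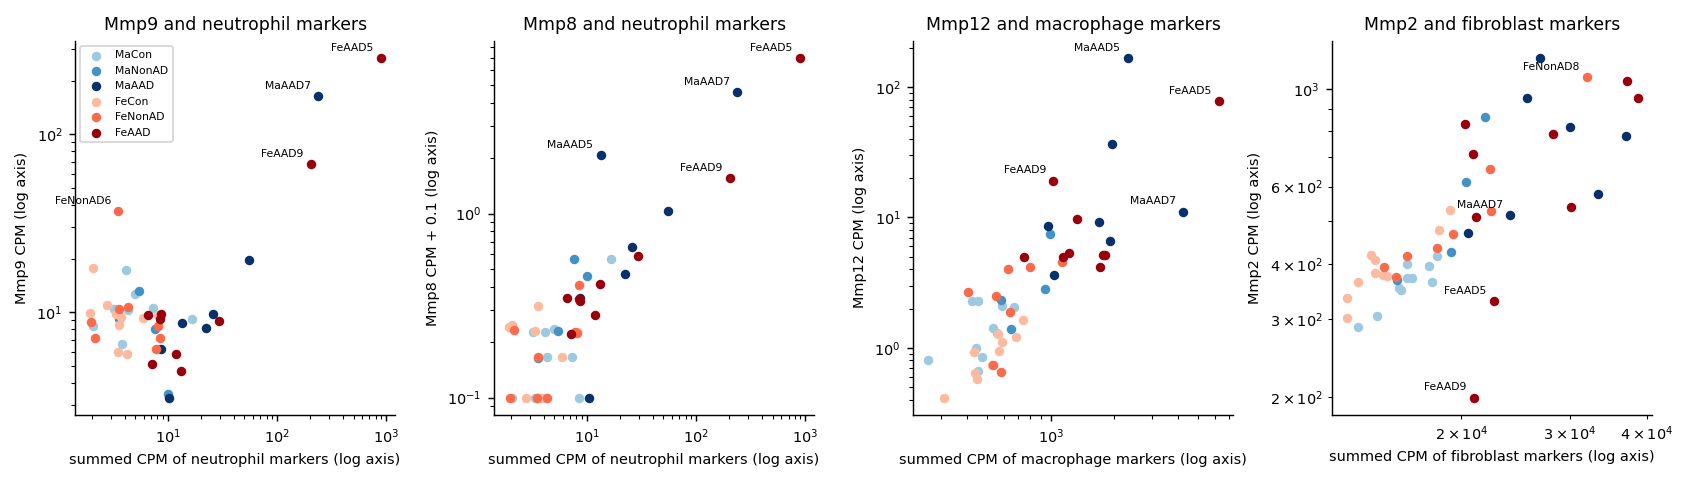
Level of Mmp9, Mmp8, Mmp12 and Mmp2 (y axes, CPM, log scale; CPM + 0.1 for Mmp8) against summed neutrophil, macrophage or fibroblast markers (x axes, CPM, log scale) in 48 libraries coloured by group. FeAAD5, MaAAD7 and FeAAD9 are at the upper right for Mmp9, at 268, 164 and 67.7 CPM, and FeAAD9 is the lowest of all libraries for Mmp2, at 199 CPM.

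After subtraction of group means, the correlation over 48 libraries was 0.82 between Mmp8 and Mmp9, 0.66 between Mmp8 and Mmp12 and 0.62 between Mmp8 and Mmp19. It was 0.58 between Mmp13 and Mmp14 and 0.57 between Mmp12 and Mmp13. Mmp2 ran against Mmp9 (-0.53) and Mmp8 (-0.45), with its lowest FeAAD levels in FeAAD9 (199 CPM) and FeAAD5 (330.4 CPM). These values share libraries and scaling and are descriptions. Over the 45 libraries without FeAAD5, FeAAD9 and MaAAD7, Mmp8 with Mmp9 fell to 0.19, Mmp8 with Mmp19 to 0.20 and Mmp2 with Mmp9 to -0.14. By contrast, Mmp8 with Mmp12 stood at 0.73 and Mmp2 with Mmp14 at 0.56, from 0.16 over all 48. Mmp2 and Mmp14 were also the members with the highest correlations with summed fibroblast markers, 0.66 and 0.67 over 48 libraries, and 0.68 and 0.85 over those 45. Mmp2 correlated as highly with summed chondrocyte markers (0.66, and 0.72 over those 45), and Mmp14 with summed macrophage markers at 0.58 (0.65 over those 45). Of 8 fibroblast markers, 3 (Lum, Col1a1 and Col3a1) were higher DEGs in each sex, beside 9.18% of all tested genes in males and 9.94% in females. By adjusted p alone 5 markers were higher and 0 lower in males, and 4 were higher and 1, Pi16, lower in females, where the other 3 had negative folds that did not pass. Of all tested genes 18.9% and 23.8% were higher by adjusted p alone. The summed fibroblast markers ranged from 13577 to 18258 CPM in MaCon and 20535 to 36998 CPM in MaAAD. In females they ranged from 13038 to 19201 CPM in FeCon and 20305 to 38648 CPM in FeAAD, so that the groups did not overlap in either sex. Among single tested genes, 6.14% in males and 3.63% in females lay above the controls without overlap. A sum follows its most abundant markers. The part of fibroblasts, chondrocytes and macrophages in the rise of Mmp2 and Mmp14 was not tested.

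**Figure D4:**
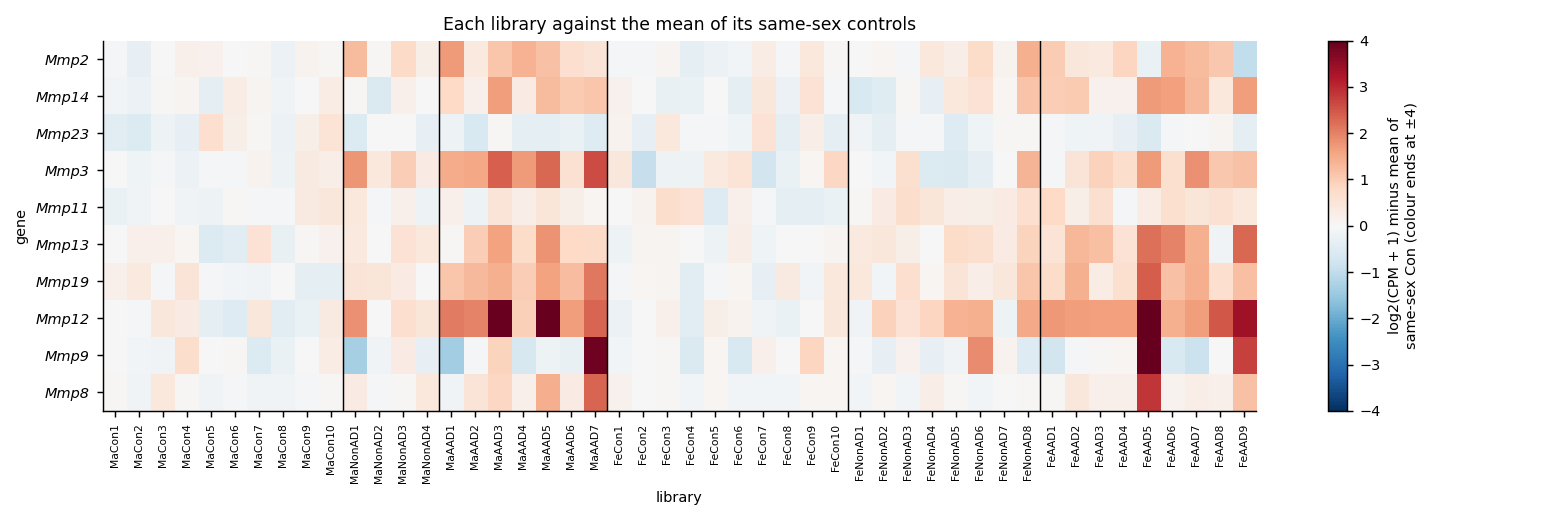
Each of the 10 genes (lines) in each of 48 libraries (columns, by group) as log2(CPM + 1) minus the mean of the same-sex controls, red above and blue below, with the colour ending at 4 and -4. Mmp12 is red in all 7 MaAAD and 9 FeAAD libraries, Mmp9 is deep red in MaAAD7 and FeAAD5, and FeAAD9 is blue for Mmp2.

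The leukocyte enzymes remained a small share of the metalloproteinase RNA. Mmp8, Mmp9 and Mmp12 together made up a median of 1.43% of the summed CPM of the 10 members in MaCon, 1.97% in MaAAD, 1.33% in FeCon and 1.32% in FeAAD. The highest share was 12.2% in MaAAD and 23.1% in FeAAD. The median share in FeAAD was close to that of its controls, while single libraries stood far above. The sum was mainly Mmp9: medians were 10.6 CPM for the sum and 9.54 CPM for Mmp9 in FeCon, and 14.8 and 9.21 CPM in FeAAD. The median of Mmp12 was 0.940 CPM in FeCon and 5.13 CPM in FeAAD, a difference that the share hardly reflects.

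By a rule of likeness, the 3 genes outside the family with the highest correlation over the 48 libraries, after subtraction of group means, were Man2b2 (0.899), Itga11 (0.888) and C1ra (0.876) for Mmp2. For Mmp14 they were Adamts4 (0.844), Runx3 (0.797) and Il4ra (0.797), and for Mmp19 Nrros (0.878), Csf2rb (0.869) and Cd53 (0.868). For Mmp12 they were Slc7a11 (0.838), Treml4 (0.805) and Adam8 (0.784), and for Mmp8 Gm5150 (0.934), Gpr84 (0.917) and Tnfsf14 (0.913). For Mmp9 they were Gad1 (0.873), Asprv1 (0.865) and Pf4 (0.863), and for Mmp23 Npdc1 (0.91), Zfp580 (0.897) and Eri3 (0.896). Mmp3 (Tpbg, 0.688), Mmp13 (Lman1, 0.723) and Mmp11 (Hs1bp3, 0.732) had no gene as close. These genes are the highest of all tested genes by construction. When FeAAD5, FeAAD9 and MaAAD7 were left out, the values for Mmp9 fell to 0.362 (Gad1), 0.208 (Asprv1) and 0.332 (Pf4), and those for Mmp8 to 0.617 (Gm5150), 0.606 (Gpr84) and 0.465 (Tnfsf14).

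In BAPN-treated mice without dissection, 1 member was a DEG in females and 0 in males. In MaNonAD vs MaCon no member was a DEG by edgeR's quasi-likelihood test, beside 0.478% of tested genes, 2 members (Mmp2 and Mmp3) had an unadjusted p under 0.05 beside 12.0% of tested genes, and DESeq2 also called none. With MaNonAD and MaCon alone in the fit, Mmp3 was called (1.01, adjusted p = 0.0307). The 4 MaNonAD libraries held 861, 368, 615 and 426 CPM of Mmp2 and 129, 50.4, 74.5 and 47.2 CPM of Mmp3. Of these 4, 3 lay above every MaCon for each gene, and MaNonAD1 was the highest for both. The log2 fold change of Mmp3 was 0.99 (adjusted p = 0.143, SE 0.31) and that of Mmp2 0.65 (adjusted p = 0.276, SE 0.26). Mmp12 held 7.49, 1.40, 2.83 and 2.34 CPM, and its log2 fold change of 1.25 (adjusted p = 0.524, SE 0.73) had an interval from -0.22 to 2.72. Without MaNonAD1 these fell to 0.60 for Mmp3, 0.38 for Mmp2 and 0.57 for Mmp12. MaNonAD1 was also the MaNonAD library with the highest macrophage (992 CPM) and fibroblast markers (21868 CPM) and the lowest smooth muscle markers (20820 CPM).

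In FeNonAD vs FeCon, Mmp13 was the 1 DEG among the members, beside 1.67% of tested genes called higher. It ranged from 0.248 to 1.27 CPM (median 0.643, 4 to 20 counts), with 6 of 8 libraries above every FeCon. Its log2 change was 1.59 (adjusted p = 0.0244, SE 0.50), and it lost its adjusted p without FeNonAD5 (0.0515) or FeNonAD8 (0.0607). Mmp12 ranged from 0.655 to 4.52 CPM (median 2.57) with 6 of 8 libraries above every FeCon, and its log2 fold change was 1.46 (adjusted p = 0.121, SE 0.65). Mmp12 passed in 3 other fits, with the replicate number as a block (1.66, adjusted p = 0.0399), with FeNonAD and FeCon alone (1.47, adjusted p = 0.00715) and without FeAAD5, FeAAD9 and MaAAD7 (1.46, adjusted p = 0.0479). With these 2 groups alone Mmp13 was under the filter on low counts and could not be tested. FeNonAD8 was the highest FeNonAD library for Mmp2 (1062 CPM), Mmp3 (134 CPM), Mmp12, Mmp13, Mmp14 (304 CPM) and Mmp19 (33.1 CPM), and also for macrophage markers (1128 CPM) and fibroblast markers (31954 CPM).

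Between AAD and NonAD aorta of the same sex, the members also tended to be higher. In FeAAD vs FeNonAD, 4 members were DEGs (Mmp8, Mmp9, Mmp12 and Mmp13) beside 6.79% of tested genes called higher, and by adjusted p alone Mmp3, Mmp14 and Mmp19 were added, beside 13.2%. Mmp8, with 0 to 5 counts in each FeNonAD library, passed the filter through the AAD libraries and was bound to differ, so it lends this count no weight either. Mmp12 rose by 2.52 (adjusted p = 0.00293, SE 0.62) and Mmp13 by 1.71 (adjusted p = 0.00489, SE 0.44) on the log2 scale. Mmp14 rose by 0.92 (adjusted p = 0.00243, SE 0.22) and Mmp19 by 0.81 (adjusted p = 0.00325, SE 0.20). All these ranges overlapped between the groups. Without FeAAD5, the calls of Mmp8 (2.03, adjusted p = 0.085), Mmp9 (0.34, adjusted p = 0.767) and Mmp12 (1.47, adjusted p = 0.0655) were lost and Mmp13 alone was left. Mmp9 was also not called by DESeq2 (0.28, adjusted p = 0.666), without the filter on low counts (1.84, adjusted p = 0.0623), with the replicate block (0.74, adjusted p = 0.513) or with FeAAD and FeNonAD alone (1.86, adjusted p = 0.154). With FeAAD5, FeAAD9 and MaAAD7 left out together, 0 members were DEGs, with Mmp13 at 1.21 (adjusted p = 0.0787) and Mmp12 at 1.09 (adjusted p = 0.223). Mmp14 (0.70, adjusted p = 0.0382) and Mmp19 (0.53, adjusted p = 0.0385) still passed the adjusted p there, and Mmp3 did not (0.72, adjusted p = 0.109).

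In MaAAD vs MaNonAD, where 4 mice stood against 7, Mmp19 was the 1 DEG, beside 0.353% of tested genes. The MaNonAD libraries held 20.96, 20.4, 18.2 and 14.1 CPM of Mmp19, all below the lowest MaAAD value of 29.6 CPM, and the log2 fold change was 1.14 (adjusted p = 0.0497, SE 0.27). This call sat at the threshold and was kept in 11 of 48 fits that each left out 1 library, and was lost without the filter, with the replicate block or with the compared groups alone. Mmp14, at 147, 97.0, 164 and 147 CPM, was also below every MaAAD library, by a narrow margin to the lowest, 165 CPM, with a log2 fold change of 1.05 (adjusted p = 0.0513, SE 0.29). Such separation was seen for 2 members beside 2.97% of tested genes. Mmp12 had a log2 fold change of 3.30 (adjusted p = 0.0502, SE 0.85) with overlapping ranges. It passed in 10 of 48 fits that each left out 1 library, and fell to 1.83 without MaAAD5. DESeq2 called Mmp12 (3.32, adjusted p = 0.00379) and Mmp14 (1.06, adjusted p = 0.0108) beside Mmp19. With FeAAD5, FeAAD9 and MaAAD7 left out, Mmp12 (3.45, adjusted p = 0.0123) and Mmp14 (1.04, adjusted p = 0.042) passed, and Mmp19 was just under the fold (0.99, adjusted p = 0.0145). The AAD, NonAD and control comparisons of a sex share libraries and are not independent.

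No member differed between males and females as a DEG in controls, NonAD or AAD aorta, beside 1.51%, 0.0485% and 0.0693% of tested genes. At an unadjusted p under 0.05 there were 3 members in controls (Mmp3, Mmp13 and Mmp23), 0 in NonAD and 1 in AAD (Mmp12), beside 29.1%, 6.47% and 2.22% of tested genes. DESeq2 called Mmp13 in MaCon vs FeCon and no member in the other comparisons of the sexes. Without FeAAD5, FeAAD9 and MaAAD7, Mmp12 was higher in MaAAD than in FeAAD by 2.78 (adjusted p = 0.0109), whereas without MaAAD5 the difference was -0.27. No member passed a test of the difference of response between the sexes, beside 0.298% of tested genes for the NonAD response, 0.520% for the AAD response and 0% for the step from NonAD to AAD. At an unadjusted p under 0.05 there was 1 member for the NonAD response (Mmp3), 2 for the AAD response (Mmp3 and Mmp13) and 0 for the step, beside 12.1%, 15.4% and 1.04% of tested genes, and DESeq2 called none. Intervals were wide for the leukocyte enzymes: the difference in AAD response was -0.58 for Mmp9 (95% interval -2.39 to 1.23), -0.13 for Mmp8 (95% interval -2.40 to 2.14) and 0.57 for Mmp12 (95% interval -1.19 to 2.33). They were narrower for Mmp2 at 0.34 (95% interval -0.27 to 0.96) and Mmp19 at 0.20 (95% interval -0.36 to 0.75).

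Among the other members of the family 1 gene was a DEG. Of 13 other metalloproteinase genes, 11 were in the table and 6 were tested. In AAD vs Con the median log2 fold change of these 6 was -0.19 in males and -0.07 in females. Mmp25, a membrane-anchored enzyme of leukocytes, was the DEG, but it passed the filter on low counts through the AAD libraries and was bound to differ, so its call lends no weight. Its counts per library were 0 to 4 in MaCon (median 1) and 5 to 37 in MaAAD (median 9), and 0 to 4 in FeCon (median 2) and 3 to 74 in FeAAD (median 12). Mmp17 was lower by adjusted p in both (-0.71, adjusted p = 0.00224, and -0.58, adjusted p = 0.00476). Mmp15 was lower in males (-0.55, adjusted p = 0.0107) and higher in females (0.40, adjusted p = 0.0386), without reaching the fold in either. The female value passed in 40 of 48 fits that each left out 1 library. Its control levels differed, with means of 9.35 CPM in MaCon and 5.43 CPM in FeCon (a difference of 0.78 on the log2 scale, adjusted p = 0.000661), while those of MaAAD and FeAAD were 6.41 and 7.16 CPM. On chromosome 9, Mmp27, which lies next to Mmp8, stayed between 1.04 and 1.52 CPM in the medians of the groups. Mmp10, between Mmp1a and Mmp8 in the block, had at most 4 counts in any library, and Mmp1b and Mmp7 at most 2.

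Of 6 inhibitors, Timp1 alone was a higher DEG in AAD of both sexes, beside 9.18% of all tested genes in males and 9.94% in females. It ranged from 16.2 to 34.6 CPM in MaCon and 139 to 943 CPM in MaAAD, and from 16.9 to 35.0 CPM in FeCon and 56.6 to 2045 CPM in FeAAD, with no overlap in either sex. Its fold on the log2 scale was 3.90 (adjusted p = 3.42e-07, SE 0.55) in males and 4.35 (adjusted p = 1.86e-08, SE 0.55) in females, and in FeNonAD vs FeCon 1.63 (adjusted p = 0.025, SE 0.51). This last call rested on FeNonAD8, at 336 CPM against 79.9 CPM in the next library, and without it the value was 0.71 (adjusted p = 0.33). The AAD values were 3.46 (adjusted p = 1.29e-08) and 2.82 (adjusted p = 2.95e-07) without FeAAD5, FeAAD9 and MaAAD7. Timp3, the matrix-bound inhibitor and much more abundant by CPM, held medians of 1387 CPM in MaAAD and 1433 CPM in MaCon and had log2 fold changes of 0.01 in males and -0.03 in females (adjusted p = 0.973 and 0.897). Timp2 had 0.12 in males and 0.06 in females, and Reck -0.03 and -0.18, none passing the test. Timp4 was lower by adjusted p in males (-0.75, adjusted p = 0.0428, SE 0.30), in 24 of 48 fits that each left out 1 library and not without FeAAD5, FeAAD9 and MaAAD7 (-0.64, adjusted p = 0.0607), with medians of 9.74 CPM in MaAAD and 20.5 CPM in MaCon. In females it had -0.56 (adjusted p = 0.0956, SE 0.27). A2m, at medians of 0.142 CPM in FeCon and 0 in FeNonAD, was a lower DEG in FeNonAD vs FeCon (adjusted p = 0.00584), a call that rested on FeCon10 (7.87 CPM) and was lost without it (adjusted p = 0.094).

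Genes of metalloproteinase activation and binding were partly higher: of 11 genes reported, 10 were tested and 4 were higher DEGs in each sex, with no lower DEG. Beside them, 9.18% of all tested genes in males and 9.94% in females were called higher. The called genes were Plau, a protease that generates plasmin, its receptor Plaur, Lcn2, which binds MMP9, and Cd44, a cell surface docking protein. In AAD vs Con, Plau rose by 1.49 in males (adjusted p = 1.03e-06) and 1.76 in females (adjusted p = 1.25e-08) on the log2 scale, and Lcn2 by 4.53 (adjusted p = 5.7e-07) and 2.35 (adjusted p = 0.00093). When FeAAD5, FeAAD9 and MaAAD7 were left out, Lcn2 was at 4.11 in males (adjusted p = 7.47e-08) and 0.76 in females (adjusted p = 0.231), and Plaur in females was at 0.79 (adjusted p = 0.000423), under the fold. Furin, which cuts the propeptide of MMP14, was not higher (0.13, adjusted p = 0.331, in males and -0.24, adjusted p = 0.039, in females, the latter passing in 36 of 48 fits that each left out 1 library).

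Of 8 AP-1 and Runx2 genes, 3 were higher DEGs in MaAAD (Fosl1, Junb and Runx2) and 4 in FeAAD (Fos, Fosb, Fosl1 and Runx2), beside 9.18% and 9.94% of all tested genes. The median log2 fold change of the 8 was -0.13 in males, with 4 above 0, and 0.86 in females, with 6 above 0. Runx2, the transcription factor of bone and hypertrophic cartilage cells, rose by 1.98 in males (adjusted p = 3.75e-07, SE 0.28) and 2.23 in females (adjusted p = 1.02e-08, SE 0.27), and by 1.02 in FeNonAD vs FeCon (adjusted p = 0.0108, SE 0.28). Fosl1 rose by 2.49 in males (adjusted p = 2.96e-05) and 1.82 in females (adjusted p = 0.000535), the latter at 0.89 (adjusted p = 0.0609) without FeAAD5, FeAAD9 and MaAAD7. The female call of Fosb was lost without FeAAD3 (0.54, adjusted p = 0.183). Jund was lower by adjusted p in both (-0.84, adjusted p = 0.0046, and -0.82, adjusted p = 0.00202).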

How the data were processed

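Strand-specific RNA-seq was read for 48 thoracic aortas. The authors deposited expected counts per gene and mouse, not scaled to depth, as gene tables. The submitters' processing notes name Bowtie2, RSEM 1.3.1 and GRCm39, and the annotation is not given in the sources used here. Of the values 4.99% were not whole, and 0 members had such values, and all were rounded to counts. Library totals were 13548003 to 17281262 (median 15681334), and at this depth low genes such as Mmp8 rest on few counts.

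Groups came from the sample titles. In R 4.3.3, edgeR 4.0.16 fitted all 48 libraries with 1 mean per group after filterByExpr (14431 genes) and TMM scaling (factors 0.874 to 1.08), with the robust quasi-likelihood test and Benjamini-Hochberg adjustment over all tested genes in 12 contrasts. Each p measures the spread between mice. The SE is the size of the log2 fold change divided by the square root of the test's F. CPM is the rounded count over the library total times its TMM factor, per 1000000. The tests had been planned for whole counts and were kept after rounding.

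The named genes were the 10 members in every comparison and the genes of the family, inhibitor, activation and transcription factor lists. A gene of the activation list is not reported here and was left out of its counts. The members and lists were chosen with earlier results of these data known. Transcript lengths came from GENCODE M21 on GRCm38, and promoters from RefSeq (GRCm38.p6). Correlations and likeness used log2(CPM + 1) after group means were subtracted, except that between libraries. No 2 libraries were identical (r 0.908 to 0.996). The test was checked on simulated counts. Alternatives were DESeq2 1.42.0, its size factors, no filter, no robust estimation, a replicate block, fits of the compared groups alone, each library left out and, chosen after seeing the data, FeAAD5, FeAAD9 and MaAAD7 left out.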

Additional observations from a re-analysis of the deposited data

Results flagged for a closer look

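In 11 of 60 combinations of member and group, 1 library lay far from the others of its group. Chance alone flags about 1 in 20 groups, and members share libraries. For Mmp9 these were MaAAD7 (164 CPM, nearest other 19.7), FeAAD5 (268 CPM, nearest 67.7), FeNonAD6 (37 CPM, nearest 10.7) and FeCon9 (17.7 CPM, nearest 10.9).

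For Mmp12 they were MaAAD5 (167 CPM, nearest 36.4) and FeAAD5 (77.7 CPM, nearest 19.2). FeAAD5 was also far above its group for Mmp19 (83.3 CPM, nearest 42.8) and Mmp8 (6.92 CPM, nearest 1.45). The remaining cases were Mmp2 in FeNonAD8 (1062 CPM, nearest 656) and, on few counts, Mmp8 in MaCon3 (0.468 CPM, 7 counts) and FeNonAD4 (0.31 CPM, 5 counts).

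Mmp15, a membrane-bound metalloproteinase outside the 10 members, differed between the sexes in its AAD response, with a male minus female difference of -0.944 on the log2 scale (adjusted p = 0.028 by edgeR, SE 0.23), which passed in 43 of 48 fits that each left out 1 library. Control levels differed between the sexes and AAD levels were closer.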

How the results depend on the processing

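The counts of members called stayed within 1.5 times of the reported ones except as follows, though members could change within a count. MaAAD vs MaNonAD (1 member) gave 3 with DESeq2 or its size factors, 2 without robust estimation, and 0 without the filter or with the compared groups alone. FeAAD vs FeNonAD (4) gave 7 by adjusted p alone and 2 with the compared groups alone, MaNonAD vs MaCon (0) gave 1 (Mmp3) with the compared groups alone, and MaCon vs FeCon (0) gave 1 with DESeq2. Without FeAAD5, FeAAD9 and MaAAD7, FeAAD vs FeCon (6) gave 2, FeAAD vs FeNonAD (4) gave 0, FeNonAD vs FeCon (1) gave 2, MaAAD vs MaNonAD gave 2, and MaCon vs FeCon and MaAAD vs FeAAD gave 1 each. There Mmp9 turned to -0.35 in FeAAD vs FeCon (adjusted p = 0.388) and -0.65 in FeAAD vs FeNonAD (adjusted p = 0.24). With the compared groups alone, FeNonAD vs FeCon called Mmp12 and not Mmp13, MaAAD vs MaCon called Mmp9 and Mmp14 and not Mmp8, and FeAAD vs FeCon did not call Mmp8 and Mmp13. In these fits Mmp8 was under the filter in MaAAD vs MaCon and FeAAD vs FeCon, and Mmp13 in FeNonAD vs FeCon and FeAAD vs FeCon. DESeq2 added Mmp14 in MaAAD vs MaCon and did not call Mmp9 in FeAAD vs FeCon and FeAAD vs FeNonAD, and the replicate block did the same. The cause of the other changes was not tested.

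With 1 library left out, counts ran from 0 to 1 in FeNonAD vs FeCon, 6 to 8 in MaAAD vs MaCon, 5 to 7 in FeAAD vs FeCon, 0 to 3 in MaAAD vs MaNonAD, 1 to 5 in FeAAD vs FeNonAD and 0 to 1 in MaCon vs FeCon, and were 0 in the other 6 comparisons. Replicate numbers do not pair libraries (mean r of same-numbered libraries -0.0661 to 0.16, in no comparison over 0.1 for every pair), and the replicate block gave 2 in FeNonAD vs FeCon, 0 in MaAAD vs MaNonAD, 7 in MaAAD vs MaCon, 5 in FeAAD vs FeCon and 3 in FeAAD vs FeNonAD. Mmp8 was also under the filter without FeAAD5, FeAAD9 and MaAAD7. Of the folds of called members under alternatives, 913 kept direction and call, 67 lost the call and 2 turned. Depth limits Mmp8 and Mmp13, with 12 and 34 counts over FeCon.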
